A study of Mus musculus with 14 samples.

Results

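The peroxiredoxins Prdx1, Prdx2, Prdx3, Prdx4, Prdx5 and Prdx6 were examined in the retinal pigment epithelium (RPE) of rd1 mice with and without overexpression of Nrf2. These 6 genes were chosen by name as one enzyme family, out of 34452 mouse genes in the count table, and all 6 passed the filter on low counts. RNA came from 7 rd1 mice (FVB/N strain, total loss of Pde6b function, early death of rods) at age p20. The Nrf2 eye of each mouse carried 2 adeno-associated virus (AAV) vectors, 1 for human Nrf2 and 1 for green fluorescent protein (GFP). The control eye had received the GFP vector alone. Both transgenes were driven by the RPE promoter Best1, and the capsid of the Nrf2 vector differed from that of the GFP vector, so the Nrf2 eye also differed by an added vector. RNA was released from the eyecup after removal of the retina, with no sorting of cells. Libraries are named below by group and mouse, and totals ranged from 16548349 to 50543008 counts.

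Peroxiredoxins are abundant enzymes that reduce hydrogen peroxide and organic peroxides with a reactive cysteine, and they are then recycled by a reducing partner. Prdx1 and Prdx2 are the main cytosolic members, Prdx3 lies in mitochondria, Prdx4 in the endoplasmic reticulum and Prdx5 in mitochondria, peroxisomes and cytosol. Of these, Prdx1, Prdx2, Prdx3 and Prdx5 are recycled chiefly through thioredoxin. Prdx6 has a single active cysteine, uses glutathione with the help of glutathione S-transferase pi, and also acts on phospholipids. The RPE takes up lipid-rich outer segments beside a dense blood supply, so peroxides form there steadily. Nrf2 (gene NFE2L2 in humans) is a transcription factor that binds the antioxidant response element, a short DNA motif whose core reads TGACNNNGC.

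Of the 6 peroxiredoxins, Prdx1 and Prdx6 rose in Nrf2 eyes, by 4.03-fold and 5.04-fold, and the other 4 did not pass the test. The test was the paired edgeR test of Nrf2 against control eyes, with adjusted p under 0.05 as the threshold. It called 2.94% of the 16289 genes tested higher in Nrf2 eyes and 0.491% lower (479 and 80 genes, against 314 and 198 with libraries scaled to their totals). The excess of higher calls was not there without mouse 4, when 978 genes were called higher and 1020 lower. None of the 6 members was called lower, by edgeR, DESeq2 or voom, and 0 were lower at an unadjusted p under 0.05. In either direction it called 3.43%, and 0.81% were called with a log2 fold change of at least 2, as Prdx1 and Prdx6 were. Levels are CPM, counts scaled to a common library total, and log2 fold changes are the fitted difference of Nrf2 minus control with its standard error (SE). Fold changes, paired differences and counts of mice are on another scale, after TMM scaling (trimmed mean of M values), unless CPM is named.

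The promoters are shown first, since Prdx1 and Prdx2 are both cytosolic and only the former rose. RefSeq windows of 300 bases around the annotated start were held for 5 of the 6 members, all but Prdx6 (build GRCm38.p6). The core TGACNNNGC was searched on both strands, and 12.4% of 32817 windows of all genes held it. Prdx1 had 1 match, TGACTCAGC on the strand opposite to the gene, with 124 bases between it and the RefSeq start (116685599) and 69 bases between it and the earlier GENCODE gene start (116685544). No match was found in the windows of Prdx2, Prdx3, Prdx4 and Prdx5. Lines run 5′ to 3′ along the gene, end before the GENCODE gene start, which lies upstream of the RefSeq start used for the windows, and show the match in capitals.
Prdx1, chr4:116685349-116685543, plus strand: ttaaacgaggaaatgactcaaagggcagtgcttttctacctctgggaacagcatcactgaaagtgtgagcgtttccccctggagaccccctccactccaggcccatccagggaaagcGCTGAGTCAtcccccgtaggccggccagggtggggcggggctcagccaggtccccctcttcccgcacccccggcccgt
Prdx2, chr8:84969372-84969586, plus strand: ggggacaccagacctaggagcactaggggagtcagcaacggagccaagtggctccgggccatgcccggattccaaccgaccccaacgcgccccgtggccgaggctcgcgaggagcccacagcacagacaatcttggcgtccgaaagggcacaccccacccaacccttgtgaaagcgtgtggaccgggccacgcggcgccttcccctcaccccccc
Txnrd1, Srxn1 and Gstp1, which reduce or support the family, and the known Nrf2 targets Gclm and Nqo1 were searched alike. Gclm, Srxn1 and 1 of 3 windows of Txnrd1 had a match, and Gstp1 and Nqo1 had none. The match of Srxn1 lay downstream of the RefSeq start, on the opposite strand. The match of Gclm lay 125 bases and that of Txnrd1 83 bases before the RefSeq start, also on the opposite strand. Only those of Gclm and Txnrd1 are printed with their flanks, for comparison with that of Prdx1.
Gclm, chr3:122245407-122245447, plus strand: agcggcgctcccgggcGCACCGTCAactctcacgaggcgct
Txnrd1, chr10:82859098-82859138, plus strand: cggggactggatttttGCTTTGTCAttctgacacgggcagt
These are matches of letters, and no binding was measured here.

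The vector transcript was read in every library before the members, because it checks the labels. Human NFE2L2 stood between 1163 and 8711 CPM in Nrf2 eyes and between 1.12 and 1163 CPM in control eyes. The libraries Nrf2 4 and control 3 had the same level, 1163 CPM each, and for Prdx1 and Prdx6 the former was the lowest Nrf2 library and the latter the highest control library. The paired edgeR test of human NFE2L2 gave a log2 fold change of 7.36 with an SE of 1.74 and did not pass (adjusted p 0.0598), with the Nrf2 eye above the control eye in 7 of 7 mice. Results are therefore also given without mice 3 and 4. Since Nrf2 4 and control 3 held these extreme values of Prdx1 and Prdx6, a larger change without these mice follows from the choice. Endogenous Nfe2l2 changed by 0.28 (SE 0.10, adjusted p 0.20).

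The tissue was checked through marker genes. All 10 RPE markers were detected, and they summed to between 6232 and 30632 CPM in control and between 13448 and 27200 CPM in Nrf2 eyes. The paired edgeR test called 0 of them higher and 1 lower, where it called 0.491% of all genes lower. Their median log2 fold change was -0.27, that of all genes -0.04. Markers of other cells were present too. The 8 cone markers summed to between 43.2 and 1054 CPM in control and between 18.8 and 98.8 CPM in Nrf2 eyes, and were lower in all 7 mice. Of these 8 genes the test called 0 higher and 2 lower. The 10 rod markers summed to between 20.8 and 479.9 CPM in control and between 6.93 and 105 CPM in Nrf2 eyes. Markers of inner retina summed to between 529 and 2094 CPM in control and between 867 and 1856 CPM in Nrf2 eyes. For Müller glia the sums were 769 to 3020 CPM in control and 1688 to 2139 CPM in Nrf2 eyes. Those of lens were 162 to 3892 CPM in control and 42.5 to 3651 CPM in Nrf2 eyes. Keratins of surface epithelium (6 genes) summed to between 2171 and 54467 CPM in control and between 2246 and 22557 CPM in Nrf2 eyes, and were higher in the Nrf2 eye of 1 mouse, mouse 4. None of these markers was at 0 in every library. Their part in the results below was not tested, and in bulk RNA fewer cells of a type and less RNA per cell cannot be told apart.

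Prdx1 (ENSMUSG00000028691, chromosome 4, 116685544 to 116700822, plus strand, GRCm38) is the cytosolic member known as an Nrf2 target. It had a low of 524, a median of 620 and a high of 1009 CPM in control eyes. In Nrf2 eyes the low was 1012, the median 2738 and the high 3755 CPM. The groups did not overlap, but the gap was small, since control 3 had 1009 and Nrf2 4 had 1012 CPM. Of all genes tested, 1.04% had every Nrf2 library above every control library. Control eyes averaged 682 ± 165 CPM and Nrf2 eyes 2638 ± 917 CPM (SD, n = 7 each). The fitted change was 2.01 log2 units (SE 0.27), at an adjusted p of 0.0104 in edgeR. The paired difference of TMM-scaled log2 values ran from 0.90 in mouse 4 to 3.12 in mouse 1, and it was above 0 in 7 of 7 mice, as for 5.65% of all genes. Without mice 3 and 4 the log2 fold change was 2.30 (adjusted p 0.00785).

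Prdx6 (ENSMUSG00000026701, chromosome 1, 161240112 to 161251219, minus strand) is the glutathione-dependent member. Its low, median and high were 670, 737 and 1471 CPM in control eyes, and 1577, 4613 and 6098 CPM in Nrf2 eyes. Again the groups did not overlap, and control 3 and Nrf2 4 were the libraries nearest to each other. Control 5 also stood above the other control eyes, at 1210 CPM. Control eyes averaged 901 ± 311 CPM and Nrf2 eyes 4256 ± 1463 CPM (SD, n = 7 each). The fitted change was 2.33 log2 units (SE 0.30), at an adjusted p of 0.00996 in edgeR, and the paired difference was 1.17 in mouse 4 and 3.23 in mouse 1. Without mice 3 and 4 the log2 fold change was 2.66 (adjusted p 0.00723). Among 16289 genes Prdx6 ranked 149th and Prdx1 207th by log2 fold change. By p they ranked 55th and 72nd.

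For Prdx1 and for Prdx6, flipping the signs of the 7 paired differences in every way (exact permutation, two-sided) gave p 0.0156, the smallest that 7 pairs allow.

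**Figure D1:**
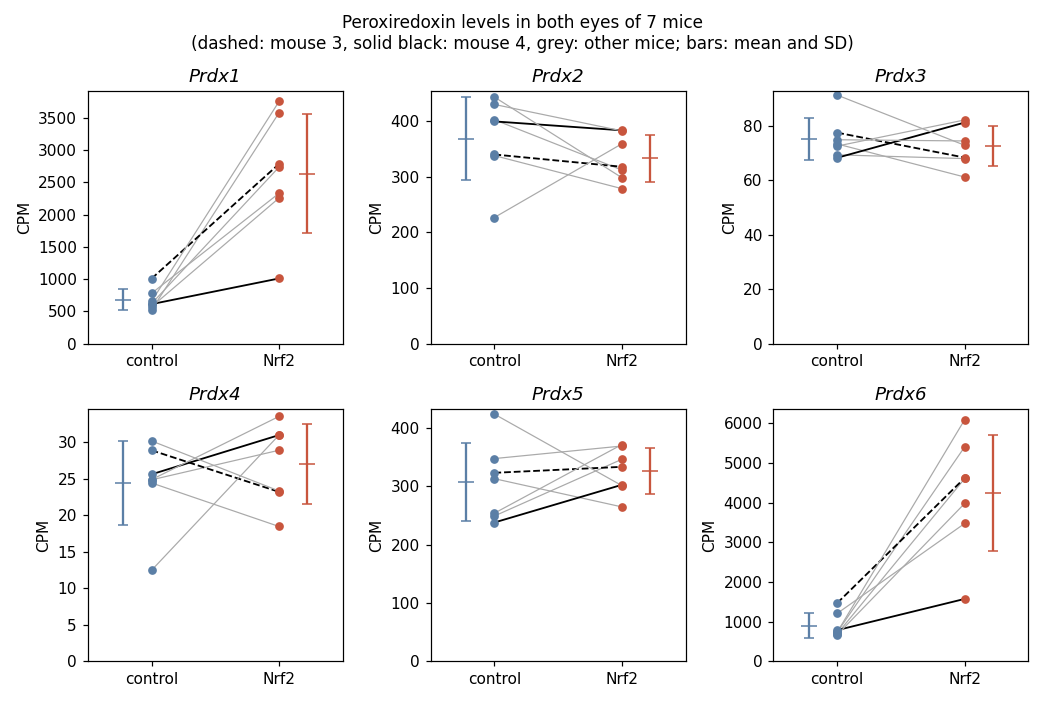
CPM of each peroxiredoxin in the control and the Nrf2 eye of 7 mice, with 1 line per mouse and a separate axis from 0 in each panel. Bars beside the points give mean and SD (n = 7). The lines of Prdx1 and Prdx6 go up in all 7 mice, least in mouse 4, whereas lines of the other 4 genes go both ways.

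Prdx2 (ENSMUSG00000005161, chromosome 8, 84969587 to 84974834, plus strand), the other cytosolic member and the dominant one of red blood cells, had a low of 227, a median of 399 and a high of 443 CPM in control eyes. In Nrf2 eyes these were 279, 318 and 383 CPM. The groups overlapped. The log2 fold change was 0.00 (SE 0.14, adjusted p 0.99) with a 95% confidence interval from -0.31 to 0.32, and 3 of 7 mice were higher in the Nrf2 eye on the TMM scale, against 1 of 7 (mouse 6) in CPM. Its sign turned with the scaling: with libraries scaled to their totals alone the log2 fold change was -0.13. The low value belonged to control 6, the library with the most surface epithelium RNA (54467 CPM in 6 keratins). Control 6 also had the lowest marker sums of inner retina (529 CPM), Müller glia (769 CPM), endothelium (56.7 CPM) and fibroblasts (110 CPM). The part of these sums in the level of Prdx2 was not tested. Without mouse 6 the log2 fold change was -0.11 (adjusted p 0.62). The 7 red blood cell markers summed to between 556 and 3745 CPM in control and between 341 and 1376 CPM in Nrf2 eyes, and their part in the level of Prdx2 was not tested.

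Prdx3 (ENSMUSG00000024997, chromosome 19, 60864051 to 60874556, minus strand), the mitochondrial member, had the smallest spread of paired differences in the family (SD 0.21, log2, n = 7). It had 68.2, 73.3 and 91.2 CPM as low, median and high in control eyes, and 61.2, 72.8 and 82.1 CPM in Nrf2 eyes. Only 1 control library, control 5, lay above the highest Nrf2 library. The log2 fold change was 0.08 (SE 0.10, adjusted p 0.71, 95% confidence interval -0.14 to 0.29), and it was -0.05 with libraries scaled to their totals.

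Prdx4 (ENSMUSG00000025289, chromosome X, 155323918 to 155340754, minus strand) serves oxidative protein folding in the endoplasmic reticulum. It was the lowest member, with 12.5, 24.9 and 30.2 CPM as low, median and high in control eyes and 18.5, 28.9 and 33.5 CPM in Nrf2 eyes. The fitted change was 0.29 log2 units (95% confidence interval -0.13 to 0.71, SE 0.19, adjusted p 0.44), higher in 4 of 7 mice. The low control value was again that of control 6, and the paired difference of mouse 6 was 1.28, against -0.21 to 0.53 in the other mice. Without mouse 6 the log2 fold change was 0.11 (adjusted p 0.69).

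Prdx5 (ENSMUSG00000024953, chromosome 19, 6906697 to 6910106, minus strand) had a low of 238, a median of 313 and a high of 423 CPM in control eyes. In Nrf2 eyes it had 265, 333 and 371 CPM. Here control 6 was the highest library of all, opposite to Prdx2 and Prdx4. The log2 fold change was 0.24 (SE 0.18, adjusted p 0.51, 95% confidence interval -0.16 to 0.65), higher in 5 of 7 mice. Without mouse 6 it was 0.35 (adjusted p 0.26). The 4 genes that did not pass ranked between 3063rd (Prdx4) and 7295th (Prdx2) of 16289 by log2 fold change, and the median over all genes was -0.04.

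Whether the members differed in their response was tested on ratios within a library, which depend neither on scaling nor on transcript length. Of 15 pairs of members, 8 differed between the eyes at an adjusted p of 0.0293 (exact sign-flip permutation test, Benjamini-Hochberg over the 15 pairs). These were the 8 pairs that set Prdx1 or Prdx6 against Prdx2, Prdx3, Prdx4 or Prdx5. The change of Prdx1 exceeded that of Prdx2 by 2.01 ± 0.83 (log2, SD, n = 7) and that of Prdx4 by 1.72 ± 0.92, and the change of Prdx3 minus that of Prdx6 was -2.25 ± 0.83, with the same sign in 7 of 7 mice for each pair. The 6 pairs among Prdx2, Prdx3, Prdx4 and Prdx5 did not pass, with adjusted p from 0.14 to 0.92. Their intervals were not narrow, for example from -0.75 to 0.86 (95% confidence) for Prdx4 against Prdx5.

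Prdx6 changed more than Prdx1 in 6 of 7 mice. The change of Prdx1 minus that of Prdx6 was -0.32 ± 0.26 (log2, SD, n = 7), which did not pass over the 15 pairs (exact sign-flip permutation p 0.0312, adjusted p 0.0521). The counts of Prdx6 per count of Prdx1 were between 1.12 and 1.55 in control eyes and between 1.49 and 1.76 in Nrf2 eyes.

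The make-up of the family shifted accordingly. Levels of different genes are compared here per length, as CPM per kilobase of merged exons. In control eyes the order was Prdx1 (224 ± 54.1, SD, n = 7), Prdx6 (188 ± 64.8), Prdx5 (143 ± 31.0), Prdx2 (121 ± 24.4), Prdx3 (50.9 ± 5.21) and Prdx4 (11.6 ± 2.72). Neighbours, taken from the order of these same levels, were compared by the exact sign-flip permutation test within libraries, adjusted over 10 neighbour pairs. Prdx6 and Prdx5 (adjusted p 0.16) and Prdx5 and Prdx2 (adjusted p 0.40) did not differ beyond their spread, and the other 3 neighbour pairs did (adjusted p 0.0223). In Nrf2 eyes the order was Prdx6 (886 ± 305), Prdx1 (867 ± 301), Prdx5 (153 ± 18.4), Prdx2 (109 ± 13.7), Prdx3 (49.1 ± 5.08) and Prdx4 (12.8 ± 2.59), and the pair of Prdx6 and Prdx1 was the one that did not pass (adjusted p 0.42). With the longest transcript as length that pair did differ, with Prdx6 above Prdx1 in 7 of 7 Nrf2 libraries (adjusted p 0.0223). The order within each of the pairs Prdx1 and Prdx6, and Prdx2 and Prdx5, depends on the length used. With the longest transcript as length Prdx6 led in control eyes (352 ± 122 against 297 ± 71.8 for Prdx1). It was above Prdx1 in 7 of 7 control libraries (adjusted p 0.0223, same test), the reverse of the order with merged exons. With that length the control mean of Prdx2 (229 ± 46.2) was above that of Prdx5 (168 ± 36.4). This pair did not pass (exact sign-flip permutation test, adjusted p 0.0938).

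Prdx1 and Prdx6 together made up 55.0 ± 5.4% of the family's transcripts per kilobase in control and 82.7 ± 7.6% in Nrf2 eyes (SD, n = 7). Control eyes ranged from 49.9% to 66.0% and Nrf2 eyes from 66.2% to 88.0%. As a share of all counts in a library the 6 genes held from 0.198% to 0.325% in control and from 0.339% to 1.07% in Nrf2 eyes.

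**Figure D2:**
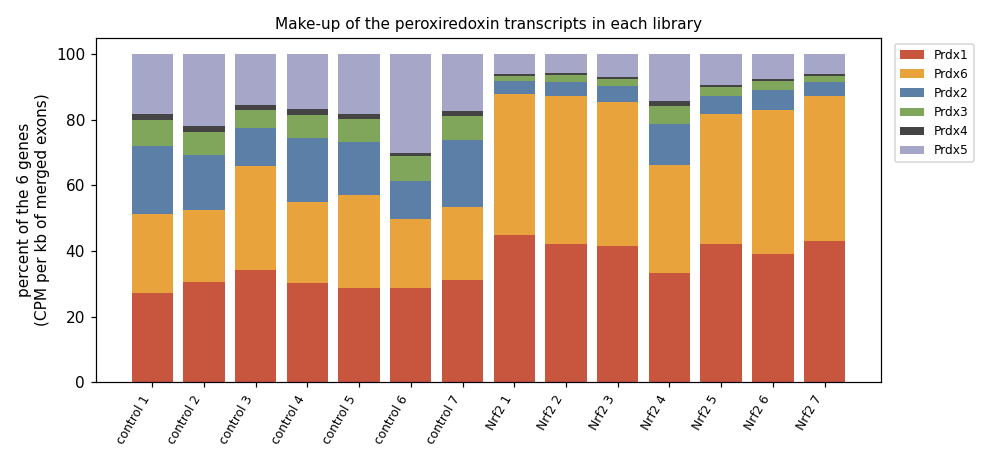
Percent of the family's transcripts (CPM per kilobase of merged exons) that each peroxiredoxin made up in the 14 libraries. Prdx1 and Prdx6, at the base of the bars, take from 49.9% to 66.0% in control and from 66.2% to 88.0% in Nrf2 eyes, and control 3 and Nrf2 4 look alike.

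Mice differed widely in vector transcript, and the members were set against it within each group. This relation was chosen after the values were seen, and 12 relations were computed (6 genes in 2 groups), on log2 scales with 1 CPM added to the vector transcript. In the 7 Nrf2 eyes Prdx6 had a Pearson r of 0.991 (exact permutation p 0.000595, adjusted p 0.00714) and a Spearman rho of 0.964 (exact permutation p 0.00278, adjusted p 0.0333). For Prdx1 r was 0.986 (exact permutation p 0.00119, adjusted p 0.00714) and rho 0.929 (exact permutation p 0.00675, adjusted p 0.0405). Leaving out Nrf2 1 and Nrf2 4, the libraries farthest from the median vector level, left r at 0.978 for Prdx6 and 0.926 for Prdx1 (n = 5). The other 4 members had r between -0.50 and 0.33 in Nrf2 eyes, none past the threshold (lowest adjusted p 0.53). Without Nrf2 1 and Nrf2 4 the r of Prdx2, Prdx3 and Prdx4 turned from -0.37, -0.50 and -0.34 to 0.60, 0.48 and 0.53 (n = 5). The 2 libraries with the most vector transcript, Nrf2 1 and Nrf2 7, were also those with the most counts (43674960 and 50543008), and the part of depth was not tested. The extraction notes in the labels describe 2 sequencing runs but not which library was in which, so no relation within runs could be computed.

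In the 7 control eyes, where vector transcript reached 1163 CPM in control 3 and 175 CPM in control 5, these were also the libraries with the most Prdx1 and Prdx6. Pearson r was 0.883 for Prdx1 (exact permutation p 0.00417, adjusted p 0.0167) and 0.834 for Prdx6 (exact permutation p 0.00952, adjusted p 0.0286). It was 0.826 and 0.870 without control 1 and control 6 (n = 5), which kept control 3 and control 5 in. No r without control 3 or control 5 was computed. Over all 7 control eyes Spearman rho was 0.857 for Prdx1 and 0.750 for Prdx6 and did not pass after adjustment (adjusted p 0.0714 and 0.16, exact permutation). On the TMM scale the adjusted p of r was 0.0790 and 0.0571, so in control eyes the relation depends on the scale and the measure. For Prdx4 in control eyes rho alone passed, at 0.893 (exact permutation p 0.0123, adjusted p 0.0492), but r did not (0.673, adjusted p 0.15), nor did rho on the TMM scale (adjusted p 0.19).

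**Figure D3:**
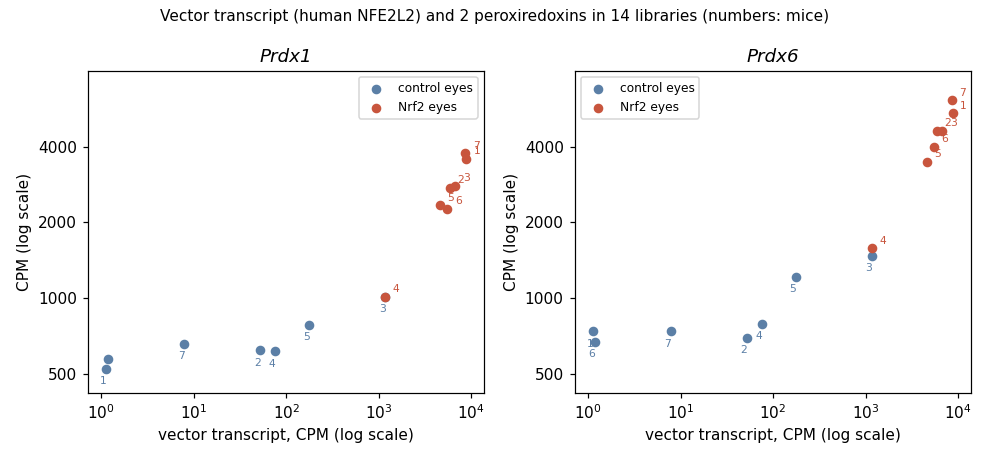
CPM of Prdx1 and Prdx6 against CPM of the vector transcript in 14 libraries, both on log axes, with the mouse number at each point. Nrf2 4 and control 3 meet at 1163 CPM of vector transcript, with 1012 and 1009 CPM of Prdx1, and the other 6 Nrf2 eyes lie above them.

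A list of 23 genes, called recycling partners here, held enzymes that recycle peroxiredoxins and genes that act around them. Of these, 5 rose and 0 fell in the paired edgeR test (0 were lower at an unadjusted p under 0.05, and DESeq2 and voom called 0 lower). Of all 16289 genes the test called 2.94% higher and 0.491% lower. The median log2 fold change of the 23 genes was 0.26, that of all genes -0.04. Srxn1, for sulfiredoxin, which rescues over-oxidised 2-Cys peroxiredoxins, had a median of 60.2 CPM in control and of 2140 CPM in Nrf2 eyes, and changed by 4.67 log2 units (SE 0.58, adjusted p 0.00936). Its groups overlapped, with 468 CPM in control 3 and 447 CPM in Nrf2 4. Txnrd1, for the cytosolic thioredoxin reductase, changed by 3.53 (SE 0.37, adjusted p 0.00936). Thioredoxin itself, Txn1, had 107 CPM in control and 113 CPM in Nrf2 eyes on average (log2 fold change 0.26, SE 0.18, adjusted p 0.48). The mitochondrial pair Txn2 (-0.01, SE 0.12, adjusted p 0.98) and Txnrd2 (0.06, SE 0.16, adjusted p 0.88) did not pass either. Neither of them, nor Txn1 or Prdx3, passed in any of the alternatives tried.

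Gstp1, for the glutathione S-transferase that serves Prdx6, had a median of 142 CPM in control and of 1880 CPM in Nrf2 eyes, and changed by 3.40 log2 units (SE 0.41, adjusted p 0.00936). Its groups overlapped, with 446 CPM in control 3 and 420 CPM in Nrf2 4. Its near-identical copy Gstp2 was called as well (3.75, SE 0.61, adjusted p 0.0174), but had only 3 to 24 counts in control libraries, and how reads were divided between it and Gstp1 was not tested, so its value is uncertain. Txnl1, a thioredoxin-like protein of the proteasome, rose by 0.42 log2 units (SE 0.08, adjusted p 0.0337). Gstp2 and Txnl1 both missed the threshold without mouse 1, 3, 5, 6 or 7, and Txnl1 also without mice 3 and 4 (adjusted p 0.0872), with total-count scaling (0.0835) and with no filter (0.12). The sestrin Sesn2 had 0.87 (SE 0.23, adjusted p 0.0905), and passed with DESeq2, with voom, without the block for mouse, without mouse 4 and without libraries control 3 and Nrf2 4. Of the folding enzymes that work beside Prdx4, namely Pdia4, Pdia6, P4hb, Ero1l and Ero1lb, 0 passed in edgeR, with log2 fold changes from 0.04 to 0.29, and Pdia6 did under voom. Txnip, which binds and inhibits thioredoxin, had -0.73 (SE 0.41, adjusted p 0.38) and was called lower without mouse 4 (-1.09, adjusted p 0.0161).

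Of 7 other listed enzymes that remove peroxides, 6 were tested and 2 rose, where 2.94% of all genes were called higher. These were catalase (Cat), by 1.39 (SE 0.21, adjusted p 0.0135), and the lipid peroxidase Gpx4, by 1.67 (SE 0.32, adjusted p 0.0288). In CPM the groups of Gpx4 overlapped, and the Nrf2 eye of mouse 4 lay below its control eye (1435 against 1488 CPM). Gpx1 had 0.70 (SE 0.18, adjusted p 0.0856), and Gpx8 had 0.49 (SE 0.14, adjusted p 0.12), both higher in 7 of 7 mice. Both passed with DESeq2 (adjusted p 0.00518 and 0.0298) and with voom (0.0225 and 0.0485), and Gpx1 also without libraries control 3 and Nrf2 4 (0.0406). Gpx3 (-0.15, SE 0.65) and Gpx7 (0.07, SE 0.16) had adjusted p of 0.93 and 0.86. Gpx3 had 4.55 CPM in control 6 and between 142 and 285 CPM in the other control eyes, and without mouse 6 its log2 fold change was -0.63 (adjusted p 0.0547). Cat missed the threshold without mouse 3, 5 or 7, and Gpx4 without mouse 1, 3, 5, 6 or 7. The genes chosen as known Nrf2 targets also passed: Nqo1 rose by 2.05 (SE 0.26), Gclm by 2.99 (SE 0.34) and Hmox1 by 4.30 (SE 0.56).

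**Figure D4:**
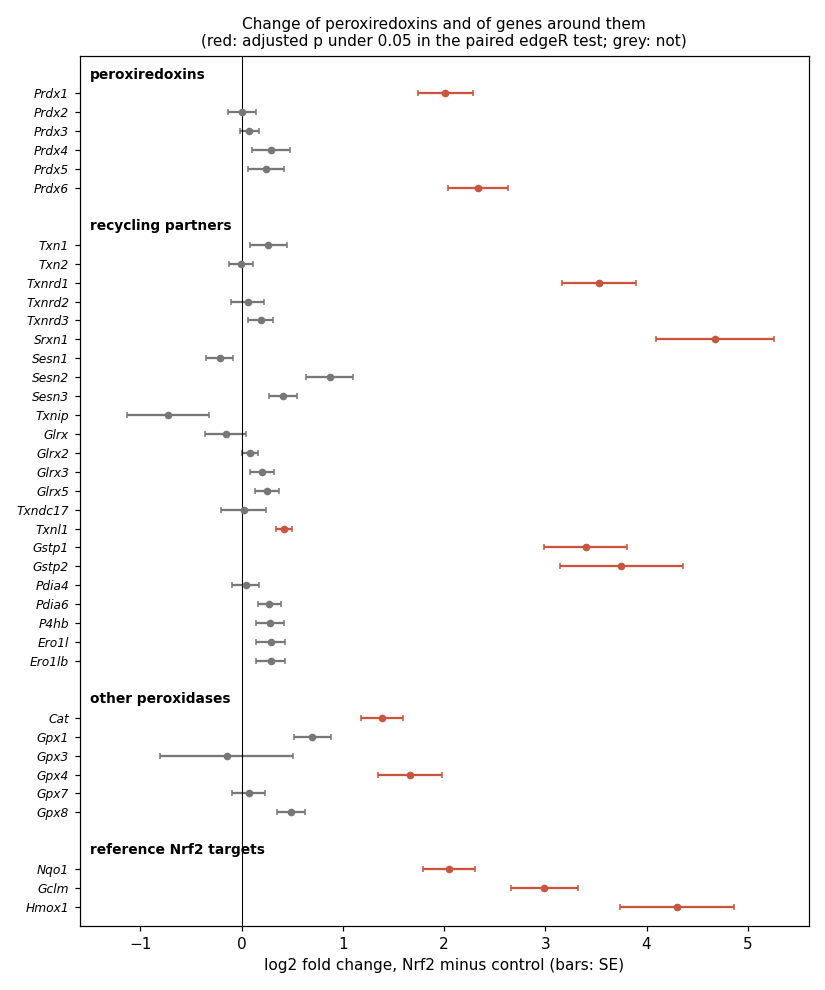
Log2 fold change (Nrf2 minus control) with SE of the 6 peroxiredoxins, 23 recycling partners, 6 other peroxidases and 3 reference Nrf2 targets, red where adjusted p was under 0.05. Prdx1 (2.01) and Prdx6 (2.33) lie near Nqo1 (2.05) and below Txnrd1 (3.53), Gstp1 (3.40) and Srxn1 (4.67), and the other 4 peroxiredoxins lie between 0.00 and 0.29.

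The genes whose log2 CPM followed each member most closely over the 14 libraries were named from 12026 genes with at least 5 CPM on average. These values are descriptions, since all libraries share the treatment contrast. For Prdx1 they were Esd (r = 0.996), Cyb5a (0.996) and Tuba1c (0.995), and for Prdx6 Gstp1 (0.995), Gclm (0.994) and Tmem158 (0.994). Prdx1 and Prdx6 had r = 0.994 with each other. Prdx2 was followed by Mrpl50 (0.937), Slc2a1 (0.919) and Zfp677 (0.913), and Prdx3 by Cct4 (0.920), Snx4 (0.904) and Dnajc19 (0.899). For Prdx4 they included Gpnmb (0.927) and Npr3 (0.926), and for Prdx5 they were Ckap4 (0.963), Rplp1 (0.962) and Bag3 (0.958). Among the 4 members that did not pass, the highest value was 0.718 (Prdx3 and Prdx5) and the lowest -0.17 (Prdx2 and Prdx5).

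Copies and overlaps limit some values. Transcripts of other genes were aligned to those of the members. Prdx1 has 3 copies alike over at least 538 bases, Gm21399 (98.3% identity), Gm7204 (97.5%) and Gm15974 (90.9%), and each held at most 0.0652% of the counts of Prdx1. Gm21399 had 8 to 20 counts in control and 10 to 153 in Nrf2 libraries. Tdpx-ps1, a copy of Prdx2 (96.3% identity over 597 bases), had 1 to 14 counts in control and 1 to 16 in Nrf2 libraries. Prdx6b, a copy of Prdx6 (91.4% identity over 701 bases), was called higher (log2 fold change 2.37, SE 0.50, adjusted p 0.0405) with 3 to 11 counts in control and 5 to 86 in Nrf2 libraries. How reads were divided between such copies is uncertain. Prdx6-ps2 and Prdx2-rs3, the other rows named after the family, had at most 30 and 6 counts in a library. Exons of Prdx2 overlap those of Junb and Rnaseh2a on the opposite strand, by 173 and 177 bases, and exons of Prdx5 overlap those of Trmt112 by 409 bases. Without strand, reads there cannot be told apart. The log2 fold change was -1.07 for Junb (SE 0.54, adjusted p 0.34) and 0.26 for Trmt112 (SE 0.12, adjusted p 0.30).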

How the data were processed

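The authors aligned reads to mm10 with Ensembl release 91 and, in parallel, ran Salmon 0.9.1 (version per the submitters' processing notes). The deposited table holds estimated counts for each gene as whole numbers, not normalized. That they derive from Salmon was inferred and is not given in the sources used here, nor is counting by strand. Groups and mice follow the labels, and all 7 labelled mice were used. The study's methods state fewer paired replicates at this age, and which mice they were is not given in the sources used here. Of 34452 mouse gene rows, 34401 matched GENCODE M21 (GRCm38).

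Eyes were compared with the edgeR 4.0.16 quasi-likelihood F-test (R 4.3.3), with mouse and group as terms, TMM scaling and filterByExpr (minimum count 10), adjusted over 16289 genes and the vector transcript. SE were derived from F. Differences of TMM-scaled log2 CPM (prior count 2) between the eyes were tested by exact sign flips. The code was tested on simulated data. Libraries that share a number in the labels were taken as the eyes of the same mouse, which was not tested. Deviations of both eyes from their group means correlated between -0.44 (mouse 4) and 0.40 (mouse 5) over 12026 genes, and mouse 6 was also negative (-0.26).

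The members, lists and tests were chosen with earlier results of these data known. Named genes were the members, both Nrf2 transcripts, listed partners and peroxidases, 3 Nrf2 targets, the 3 genes most alike to each member and rows named after the family. A gene alike to Prdx4 is not reported here. Copies and overlapping genes were named after their values were seen. Alternatives were no block, RLE, upper-quartile and total-count scaling, DESeq2 1.42.0, voom (limma 3.58.1), other filters, and mice or libraries left out.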

Additional observations from a re-analysis of the deposited data

Results flagged for a closer look

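Extremes were looked for in 21 sets of 7 values (the levels in each group and the paired differences, of the 6 members and the vector transcript). In 3 of them 1 library stood apart, and about 1 in 20 would do so by chance. The vector transcript of control 3, at 1163 CPM, stood far above the other control eyes, which had at most 175 CPM. Prdx3 was highest among control eyes in control 5, at 91.2 CPM, where the next library had 77.4 CPM. Prdx4 was lowest among control eyes in control 6, at 12.5 CPM, where the next had 24.4 CPM. Control 5 had the lowest sum of RPE markers, 6232 CPM, and control 6 the highest sum of surface epithelium keratins, 54467 CPM. Control 6 also had the lowest sums of inner retina (529 CPM) and Müller glia (769 CPM) markers. The part of these sums in the flagged values was not tested.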

How the results depend on the processing

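The rises of Prdx1 and Prdx6 kept their direction and passed the threshold in all 18 alternatives run for each, with log2 fold changes from 1.83 to 2.37 for Prdx1 and from 2.18 to 2.71 for Prdx6. The highest values came from leaving out libraries control 3 and Nrf2 4, which were picked by their vector transcript. With 1 mouse left out the log2 fold changes lay between 1.83 and 2.19 and between 2.18 and 2.52, with adjusted p of at most 0.0467 and 0.0383. Without the replicate block they were 2.09 and 2.38. Prdx2 to Prdx5 passed in 0 alternatives. The sign of Prdx2 turned without the replicate block (-0.0051), with voom (-0.031), with total-count scaling (-0.13), without mice 3 and 4 (-0.041) and without libraries control 3 and Nrf2 4 (-0.032), and it lay between -0.11 and 0.074 with 1 mouse left out. Prdx3 turned to -0.051 with total-count scaling, under which the median of all genes was -0.17 instead of -0.04. Prdx4 and Prdx5 kept their sign in the 18 alternatives. Total-count scaling called 314 genes higher and 198 lower, against 479 and 80 with TMM, and was chosen after seeing the data. The 5 recycling partners called became 8 with voom, and from 3 to 6 with 1 mouse left out. Without mouse 1, 3, 5, 6 or 7 there were 3, namely Txnrd1, Srxn1 and Gstp1. Without mouse 4 Txnip was the 1 called lower, and from 0 to 1 were with 1 mouse left out. Over all genes 559 were called, and 1100 without the replicate block, 347 without a filter (29137 genes tested), 1901 with DESeq2, 2592 with voom (1585 higher and 1007 lower), 1476 without libraries control 3 and Nrf2 4 and block, and from 111 (without mouse 7) to 1998 (without mouse 4, 978 higher and 1020 lower) with 1 mouse left out. The block changed no call of a member. The cause of these moves was not tested. At these depths the member with the fewest counts, Prdx4, had from 296 to 1694 counts.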
